A study of Mus musculus with 4 samples.

Results

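Chromosome 8 of the mouse carried 3399 of the 43106 peaks in a list of RNA stretches bound by DHX9. The peaks were chosen by their measured position alone, as every entry of the list on that chromosome. They make up 8.05% of the 42236 peaks on the 19 autosomes (exact 95% interval 7.79 to 8.31%, counting error only), while the chromosome holds 5.22% of the autosomal protein-coding span and 5.05% of the protein-coding genes. Both groups of the study were neural progenitor cells derived from the male embryonic stem cell line WT26 (strain C57BL/6x129sV) and kept with EGF and FGF2. They differed in the antibody used for the pull-down, which was DHX9-Rb in 2 libraries (replicates A and B) and IgG-Rb in the other 2. No gene was altered in either group, all libraries come from a single line, and the labels call replicates A and B biological. Each library was barcoded, and the IgG material was mixed with the DHX9 material before reverse transcription. The peaks are 1 list that names no library and holds no score or count. Values per library, depth and replicate error are therefore unknown, and no test between conditions was possible. How the IgG libraries entered the peak calling is not given. All differences below are descriptions. Intervals count genes or peaks as independent, which neighbours on a chromosome are not. Fewer copies of an RNA and weaker binding of each copy cannot be told apart from peaks.

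DHX9 is a helicase, mostly nuclear, that opens paired stretches of RNA and other folds. Its targets are often the long introns of unspliced transcripts, where inverted repeats can pair with each other. FLASH, the method used, fixes protein to RNA by ultraviolet light, pulls the protein down and sequences the attached RNA with its strand, so a peak marks both a place and the strand that was transcribed. Mouse chromosome 8 is a mid-sized autosome with its centromere at the start. It mixes stretches of very long neuronal genes, tandem clusters of defensin and carboxylesterase genes, and gene-rich stretches in its distal part.

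A peak cannot be read as sequence without a genome, but a few peaks fell in the 300-base windows around gene starts that RefSeq sequences (GRCm38.p6, the assembly of mm10) cover, from 250 bases before to 50 bases after each start. On chromosome 8, 19 of 1442 windows (1.32%) were overlapped by a peak, against 0.431% of the 29954 windows on 17 other autosomes. On the gene's own strand the shares were 0.832% and 0.290%. The 5 windows shown here are those of named genes with at least 100 bases in a peak on the gene's strand. They are printed 5′ to 3′ along the gene, and capitals mark the bases inside a peak.

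Nfix, chr8:84773361-84773660, minus strand, 264 bases in 2 peaks: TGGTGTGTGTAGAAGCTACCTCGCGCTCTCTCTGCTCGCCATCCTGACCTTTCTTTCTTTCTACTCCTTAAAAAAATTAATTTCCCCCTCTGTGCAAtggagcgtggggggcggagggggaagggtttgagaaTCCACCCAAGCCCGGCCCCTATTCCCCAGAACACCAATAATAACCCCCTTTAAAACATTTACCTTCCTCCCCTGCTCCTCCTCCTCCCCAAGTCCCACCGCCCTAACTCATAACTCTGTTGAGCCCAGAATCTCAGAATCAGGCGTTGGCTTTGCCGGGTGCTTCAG

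Neto2, chr8:85690960-85691259, minus strand, 240 bases in 2 peaks: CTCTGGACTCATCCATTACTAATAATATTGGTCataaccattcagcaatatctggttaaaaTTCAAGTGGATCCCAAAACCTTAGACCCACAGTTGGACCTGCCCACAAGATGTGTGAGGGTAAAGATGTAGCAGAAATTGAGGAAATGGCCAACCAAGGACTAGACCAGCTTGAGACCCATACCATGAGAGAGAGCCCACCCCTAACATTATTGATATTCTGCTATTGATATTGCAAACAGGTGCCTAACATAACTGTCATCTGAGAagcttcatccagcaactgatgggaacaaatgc

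Niban3, chr8:71597458-71597757, plus strand, 216 bases in 1 peak: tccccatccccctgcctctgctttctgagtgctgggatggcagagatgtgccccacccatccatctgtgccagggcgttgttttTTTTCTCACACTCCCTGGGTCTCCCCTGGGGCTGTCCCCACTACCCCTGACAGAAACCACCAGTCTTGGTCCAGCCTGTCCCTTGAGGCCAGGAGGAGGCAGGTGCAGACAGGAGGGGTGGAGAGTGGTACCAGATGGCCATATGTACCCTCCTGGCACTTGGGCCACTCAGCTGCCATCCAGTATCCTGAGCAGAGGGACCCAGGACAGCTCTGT

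Znrf1, chr8:111538093-111538392, plus strand, 118 bases in 1 peak: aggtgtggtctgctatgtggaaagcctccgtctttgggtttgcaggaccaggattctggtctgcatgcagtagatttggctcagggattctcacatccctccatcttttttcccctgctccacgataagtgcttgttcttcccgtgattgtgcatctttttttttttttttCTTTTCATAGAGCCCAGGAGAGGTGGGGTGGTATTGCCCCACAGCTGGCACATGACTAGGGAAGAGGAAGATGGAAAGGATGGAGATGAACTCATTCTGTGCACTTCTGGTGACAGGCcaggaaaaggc

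Ankrd11, chr8:123042235-123042534, minus strand, 110 bases in 1 peak: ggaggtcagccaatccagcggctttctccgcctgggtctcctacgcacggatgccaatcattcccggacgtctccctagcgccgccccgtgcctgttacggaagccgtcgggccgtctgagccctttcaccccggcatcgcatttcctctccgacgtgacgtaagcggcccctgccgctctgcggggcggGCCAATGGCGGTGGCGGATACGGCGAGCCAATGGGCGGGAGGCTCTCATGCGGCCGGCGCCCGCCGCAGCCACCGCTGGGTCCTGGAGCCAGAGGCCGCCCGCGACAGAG

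Of these, the Ankrd11 window lies at the outer start of the gene, and its peak bases run from base 191 of the window to its end. Its bases in the peak were 75.5% G or C, against a median of 54% over all windows of the chromosome. In the windows of Nfix (51.1%), Neto2 (43.8%), Niban3 (60.6%) and Znrf1 (52.5%) the bases in peaks were closer to that median. These 4 windows mark starts that RefSeq places inside the longer gene span, so RNA from a start further upstream also crosses them. Nfix encodes a nuclear factor I transcription factor, Neto2 an auxiliary subunit of kainate receptors, Znrf1 a ubiquitin ligase and Ankrd11 a chromatin regulator. In 7 of the 19 windows the only peak was on the opposite strand: that of Col4a2 was overlapped by a minus-strand peak of Col4a1, which encodes the partner collagen chain and starts beside it, and that of Cog4 by a minus-strand peak of the splicing factor gene Sf3b3.

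Of the 40 microRNA hairpins on the chromosome, 1 was overlapped by a peak on its strand. Mir23a opens a cluster that is transcribed as a long primary RNA and cut into hairpins in the nucleus. A plus-strand peak of 162 bases (chr8:84208366-84208527) covered the first 10 bases of the hairpin (chr8:84208518-84208592) and ended on the first base of the mature 5′ arm. The hairpin is printed with the bases inside the peak in capitals, and the mature arms with the seed (bases 2 to 8) in capitals.

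Mir23a hairpin: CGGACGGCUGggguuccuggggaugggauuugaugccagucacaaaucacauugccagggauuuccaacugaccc

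mmu-miR-23a-5p: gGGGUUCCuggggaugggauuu

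mmu-miR-23a-3p: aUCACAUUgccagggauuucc

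No gene of the table holds the midpoint of that peak. With 3 others it formed a row of 4 plus-strand peaks from base 84202088 to base 84208527, the last of which touches the hairpin. The nearest protein-coding gene, Zswim4, had 0 peaks of its own. The row was looked up after the list had been seen.

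Protein-coding genes of chromosome 8 carried a peak more often than those of the other autosomes. At least 1 peak lay in 297 of 1043 genes (28.5%, exact 95% interval 25.8 to 31.3%), against 3711 of 19622 (18.9%) on the other 18 autosomes. Of those 18 the lowest share was 12.9%, the median 18.2% and the highest 30.1%, on chromosome 18, so chromosome 8 ranked second. Per Mb of protein-coding span, chromosome 8 had 64.6 peaks and the other autosomes together 39.6, a ratio of 1.63 (1.57 to 1.69). The densities of the others ran from 21.8 to 83.4 per Mb with a median of 34.9. Chromosome 11 (83.4 per Mb) was the only one above chromosome 8, and chromosome 9 (50.7 per Mb) came next below it.

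The median bound gene had 4 peaks on chromosome 8 and 4 elsewhere. The 25th and 75th percentiles were 2 and 12 peaks on chromosome 8 and 1 and 10 on the other autosomes, and a single peak lay in 56 of 297 bound genes on chromosome 8 and in 965 of 3711 elsewhere. At least 10 peaks lay in 87 of the 297 bound genes (29.3%) and in 946 of 3711 elsewhere (25.5%). When the 20 genes with the most peaks were left out of each autosome, chromosome 8 kept 40.3 peaks per Mb. This was 2.01 times the density of the others together and again ranked second. That cut is unequal, since the number of bound genes differs between autosomes (297 on chromosome 8, 117 on chromosome 19). With genes of 50 or more peaks left out everywhere, the ratio was 1.70. The 10 genes with the most peaks held 27.4% of the chromosome's peaks and the 50 with the most held 62.0%.

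**Figure D1:**
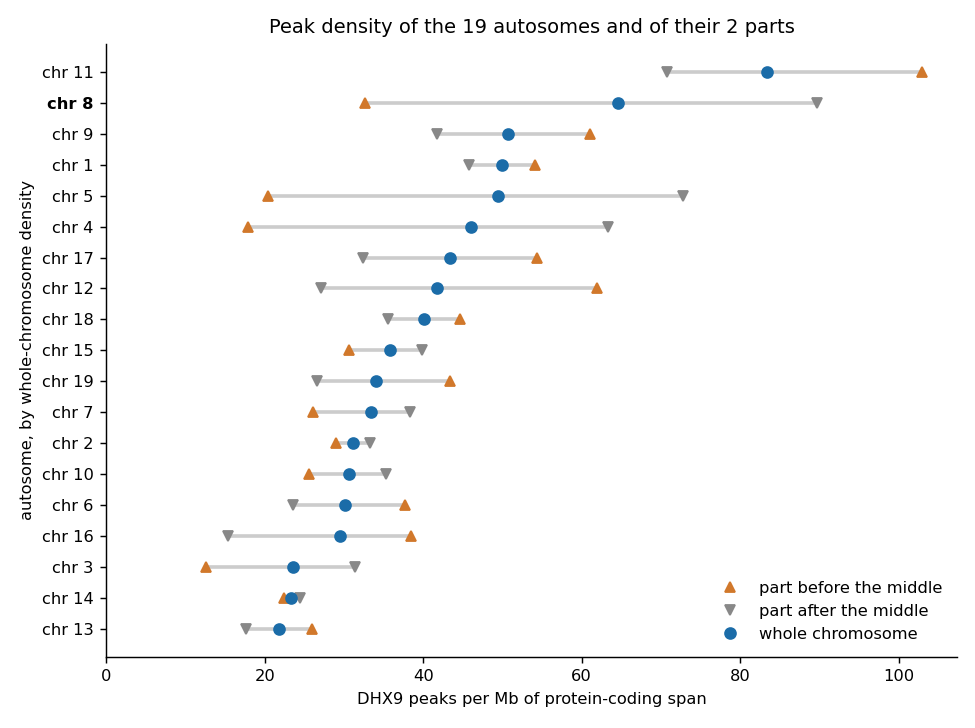
DHX9 peaks per Mb of protein-coding span (horizontal axis) for each of the 19 autosomes, sorted by the value of the whole chromosome (circles), with the part before the chromosome's middle (triangles pointing up) and the part after it (triangles pointing down). Chromosome 8 is second with 64.6 per Mb, and its parts lie far apart, at 32.7 and 89.7 per Mb.

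Gene length differs between chromosomes, and long genes are bound more often, so the shares were also set side by side within 10 equal classes of gene length. Chromosome 8 had the higher share in 9 of the 10 classes. In the fifth class (median span 14.7 kb) a peak lay in 31.4% of 121 genes on chromosome 8 and 16.6% of 1947 elsewhere. In the longest class (median 187.5 kb) it lay in 54.9% of 91 genes against 39.2% of 1976. The median number of peaks of a bound gene was also higher among long genes, at 7.5 against 5 in the ninth class and 8.5 against 5 in the longest. The ratio of the shares was lowest among the classes where chromosome 8 was higher in the ninth class (39.6% against 35.7%), and in the shortest class no gene of 61 on chromosome 8 had a peak, against 0.847% elsewhere. At the other autosomes' shares in each class, 198.9 genes of chromosome 8 would carry a peak, so the 297 found make a ratio of 1.49. Computed the same way for every autosome, that ratio was 1.43 for chromosome 11, 1.21 for chromosome 18 and 0.762 for chromosome 14, the lowest. Chromosome 8 was thus highest of the 19 by this measure.

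**Figure D2:**
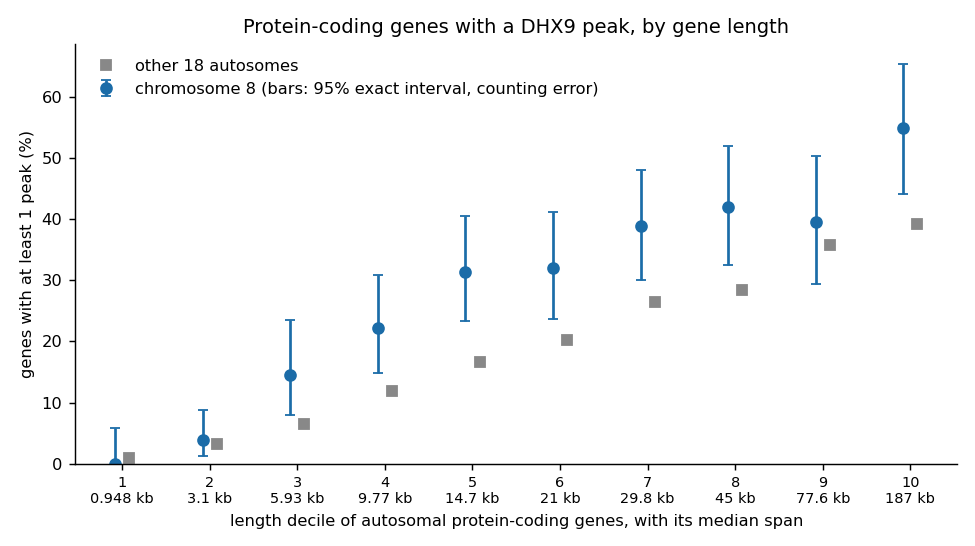
Share of protein-coding genes with at least 1 DHX9 peak (vertical axis, percent) in 10 classes of gene length (horizontal axis, with the median span of each class), for chromosome 8 (circles, bars for the exact 95% interval of counting error) and the other 18 autosomes (squares). Chromosome 8 lies above the others in 9 of the 10 classes and at 0 in the shortest.

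Along the chromosome, the peaks were uneven. Bins of 5 Mb held between 4 and 583 peaks, and none of the 26 bins was empty, while 18 of the 476 bins of the other autosomes were. Per Mb of protein-coding span, the median bin had 51.5 peaks on chromosome 8 and 22.4 elsewhere. In 18 of the 26 bins the density exceeded that median of the other autosomes' bins, and in 13 it exceeded their 75th percentile of 51.2. In 2 bins it was below their 25th percentile of 7.87. The 5 bins with the most peaks held 57.5% of the peaks on 26.4% of the protein-coding span. The exact 95% interval, 55.8 to 59.2%, takes these bins as fixed, although they were chosen by the same counts. For comparison, in the fifth of bins with the most peaks, the other autosomes had between 36.3% and 76.3% of their peaks, with a median of 56.2%, and chromosome 8 ranked eighth.

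The distal part of the chromosome held most peaks. Split at its middle (64.6 Mb), chromosome 8 had 753 peaks before it (32.7 per Mb of protein-coding span) and 2646 after it (89.7 per Mb), so the distal part held 77.8% of the peaks. The proximal value was 0.825 times and the distal value 2.26 times the density of the other autosomes together. Genes with a peak were 19.6% of those before the middle and 33.5% of those after it. Such an imbalance was also seen elsewhere: the denser part exceeded the other 3.57 times on chromosome 5, 3.53 times on chromosome 4 and 2.75 times on chromosome 8, the third largest. Among the 36 corresponding parts of the other autosomes, 1 was denser than distal chromosome 8, namely the proximal part of chromosome 11 (102.9 per Mb), and 19 were denser than proximal chromosome 8.

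**Figure D3:**
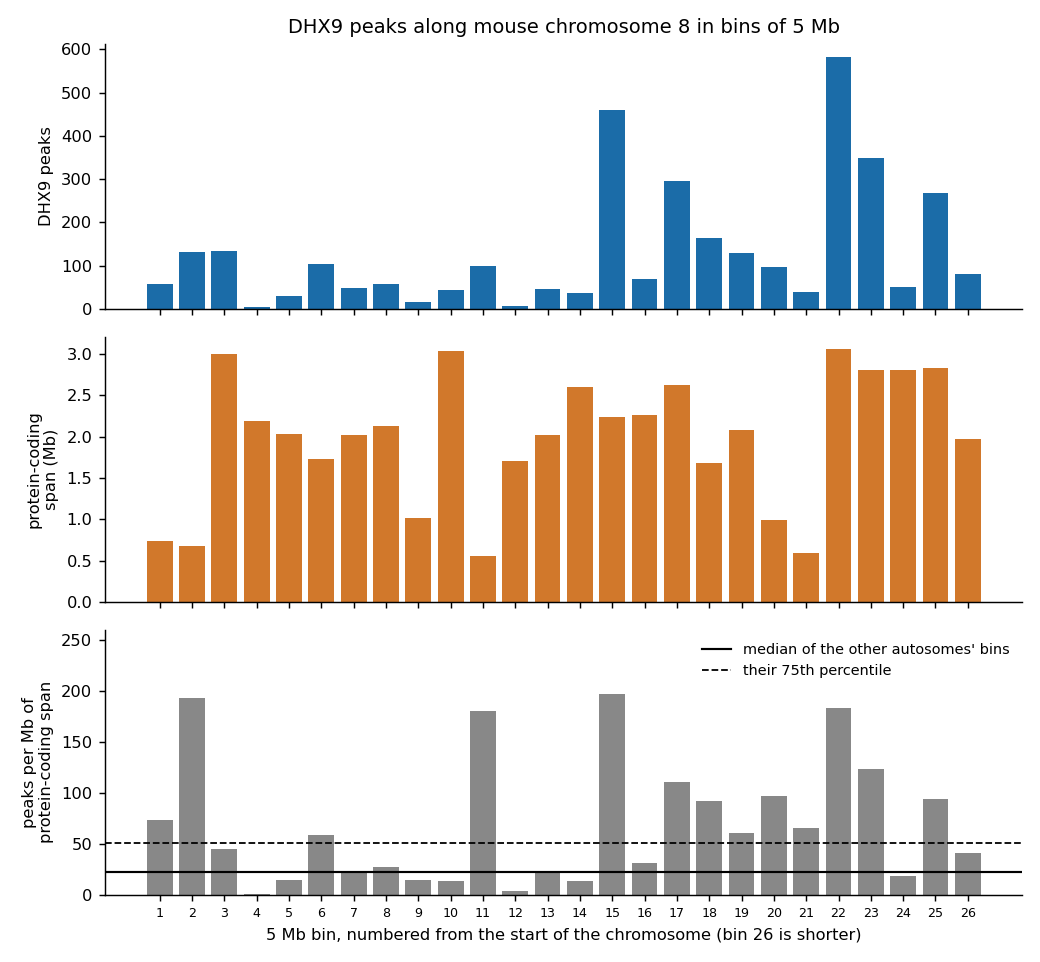
Chromosome 8 in 26 bins of 5 Mb, numbered from its start: DHX9 peaks (top), Mb covered by protein-coding genes (middle), and peaks per Mb of that cover (bottom, with the median, 22.4, and the 75th percentile, 51.2, of the bins of the other autosomes). Bin 22 (583 peaks) and bin 15 (460 peaks) stand out in number, while the sparse bin 4 (4 peaks) has 2.19 Mb of genes.

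The number of peaks in a bin was set beside its protein-coding span and its number of genes. Across the 26 bins Pearson's r between peaks and span was 0.39 (Spearman's coefficient 0.28), and across the 476 other bins it was 0.37 (Spearman's 0.49). With the number of genes in place of span, r was 0.73 (Spearman's 0.41) on chromosome 8 and 0.37 (Spearman's 0.53) elsewhere. These are descriptions across neighbouring bins of 1 list. When bins were grouped by gene number, chromosome 8 was denser than the others among bins with 45 or more genes (106.1 against 51.1 peaks per Mb, 8 and 155 bins) and among bins with 21 or fewer (1.91 times the density of the others, 6 and 168 bins). Among the 12 bins with 22 to 44 genes it was not (27.6 against 31.9 in 153 bins). Of the 6 bins with 21 or fewer genes, that from 5 to 10 Mb had 119 of its 131 peaks in Fam155a. That from 50 to 55 Mb had 97 of 99 in Gpm6a. The density of the 6 bins without these genes was not computed.

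The bin from 105 to 110 Mb had the most peaks, 583, or 17.2% of the chromosome. A peak lay in 31 of its 93 protein-coding genes. Sntb2 held 124 of the 583, Nfat5 92 and Cbfb 61. In the next bin, from 110 to 115 Mb, Glg1 (107) and Znrf1 (80) held more than any other gene of its 349 peaks. The bin from 70 to 75 Mb was the densest (197 peaks per Mb of protein-coding span) and had the most bound genes, 48 of 112, and the leading gene, Eps15l1, held 15.2% of the 460 peaks. As a share, bound genes were more frequent from 85 to 90 Mb (18 of 39, 46.2%), where the leading gene, Tent4b, held 12.3% of 163 peaks. By contrast, a single gene made up nearly all of some other dense bins. Fam155a held 119 of 131 peaks between 5 and 10 Mb, and Gpm6a held 97 of 99 between 50 and 55 Mb. The bin from 80 to 85 Mb was led by Nfix (79 of 296) and Gab1 (77), and that from 120 to 125 Mb by Ankrd11 (88 of 267).

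The sparsest bin was that from 15 to 20 Mb, where 2.19 Mb of protein-coding span carried 0.914 peaks per Mb. Its longest gene, Csmd1 (1643 kb), which encodes a large membrane protein of neurons, had 1 peak. Mcph1, a gene for a protein of chromosome condensation, also had 1, shared with another gene, and Myom2 had 0. Defensin genes, which encode small antimicrobial peptides of gut and skin, cluster around this stretch: none of the 52 annotated on the chromosome had a peak, though at a median span of 1.09 kb they are short. None of the 19 carboxylesterase genes (median span 19.6 kb) and none of the 4 metallothionein genes (median span 1.49 kb) had one either. For comparison, 20.3% of genes elsewhere had a peak in the length class with a median span of 21.0 kb. In the classes with medians of 0.948 and 3.10 kb, 0.847% and 3.15% had one. These families were picked after the values had been seen.

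The genes with the most peaks have various roles. Sntb2, the gene of a syntrophin that anchors signalling proteins to dystrophin (chr8:106935740-107014232), led with 124 plus-strand peaks in 78.5 kb, or 1.58 per kb. None of them lay in another gene. It was also the densest protein-coding gene among those with at least 10 peaks. Its peaks ran through 97.5% of the span with a largest gap of 6.86 kb, and 34 of them fell within 10 kb. A further 6 plus-strand peaks followed within 4141 bases of the right-hand border of its span.

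Fam155a, which encodes a partner of the sodium leak channel (chr8:9206006-9773329), had 119 minus-strand peaks in 567.3 kb, or 0.210 per kb. Read along the strand of the peaks, all of them lay before the middle of the gene. Gpm6a, the gene of a neuronal membrane glycoprotein, had 97 peaks in 281.4 kb (0.345 per kb), of which 78 lay in no other gene. The other 19 were shared with a noncoding gene, LOC115486929, which had no further peak. Per kb, both long genes had fewer peaks than Sntb2.

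Several of the leading genes encode regulators of transcription and chromatin. Nfat5, which encodes the factor that responds to osmotic stress, had 92 plus-strand peaks (1.07 per kb), and 36 of them lay in a single stretch of 10 kb. Nfix had 79 minus-strand peaks (0.818 per kb) over 98.9% of its span. Cbfb, the common partner of the RUNX factors, had 61 (1.29 per kb), and 54 of these were its alone. Ankrd11 had 88 (0.554 per kb), of which 69 were in no other gene. The chromatin remodeller gene Chd9 had 48 plus-strand peaks and 1 on the minus strand, and one of the former was the longest peak of the chromosome (605 bases, chr8:90982624-90983228). Mau2, which encodes a loader of the cohesin ring, had 35 peaks in 28.2 kb (1.24 per kb).

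Other leading genes act in membrane traffic and signalling. Glg1, the gene of a Golgi sialoglycoprotein, had 107 minus-strand peaks (1.01 per kb), and Cog4, of a Golgi tethering complex, had 33 (0.926 per kb). Eps15l1, an adaptor of endocytosis, had 70 peaks (0.869 per kb), and 57 of these were not shared with a second gene. The receptor adaptor gene Gab1 had 77 (0.663 per kb), the ubiquitin ligase gene Znrf1 80 (0.896 per kb), the tumour suppressor gene Dlc1 53 (0.138 per kb) and Cmip, named for induction of c-Maf, 41 (0.201 per kb). Slc10a7, a transporter gene, had 40 (0.178 per kb), and the adhesion receptor gene Adgrl1 had 37 (0.884 per kb). Fgfr1, which encodes a receptor for the FGF family, had 33 plus-strand peaks (0.579 per kb), and 16 of them were shared with the noncoding genes Gm31288 and Gm16159 within it. Cnot1, the scaffold of the complex that shortens poly(A) tails, had 57 minus-strand peaks in 89.2 kb (0.639 per kb).

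Among shorter genes with at least 10 peaks, Slc27a1, a fatty acid transporter gene, had 27 (1.45 per kb) and Mtss2, for a protein that bends membranes, had 29 (1.43 per kb). The noncoding gene Gm5914 had 17 (1.29 per kb), and 16 of those were in no other gene. The highest densities belonged to LOC115486929 (2.44 per kb) and the pseudogene LOC108167553 (1.94 per kb, 19 peaks), all of whose peaks were shared with Gpm6a and with the telomere gene Terf2. Of the 23 peaks in Terf2, 4 lay in no other gene, and the split of reads with a pseudogene is uncertain.

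**Figure D4:**
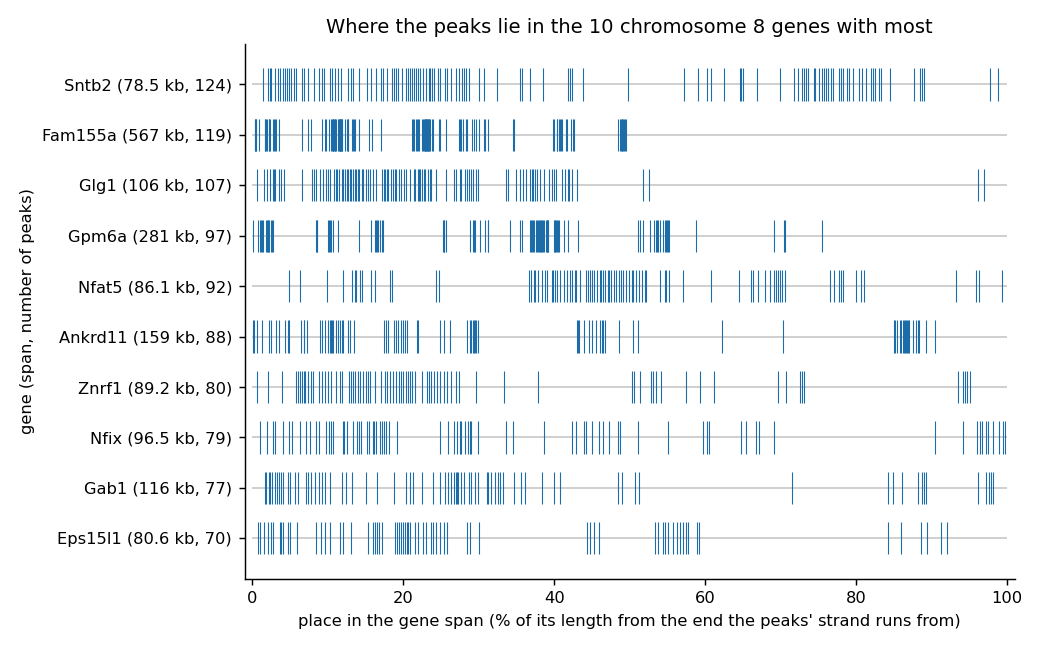
Place of each DHX9 peak (vertical ticks) in the 10 protein-coding genes of chromosome 8 with the most peaks, as a percentage of the gene span from the end the peaks' strand runs from. Labels give each gene's span and number of peaks. The peaks of Fam155a all lie before 50%, while those of Sntb2 and Nfix reach across the span.

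Within genes, peaks were more frequent before the middle of the span, read along the strand of the peaks. In the 10 genes with the most, with all their peaks counted, between 59.8% (Nfat5) and 100% (Fam155a) lay before the middle of the span. Glg1 had 96.3% there and Gab1 80.5%. For those of the next 10 genes with a known strand, only peaks in no other gene were counted, and some went the other way. Before the middle lay 34.7% of the 49 such peaks of Chd9 and 47.1% of the 34 of Adgrl1. Over all protein-coding genes of known strand on chromosome 8, 59.2% of the 2284 peaks that lay in no other gene were before the middle, against 62.6% of 27500 elsewhere. Gene strands were lacking for chromosome 18, so values elsewhere that use them come from 17 autosomes. Of the 2284, 12.3% lay in the first 10% of the gene span, 14.2% in the next 10% and 5.91% in the last 10%. The corresponding shares on the other autosomes were 13.8%, 15.5% and 5.49% of 27500 peaks. For genes with at least 5 peaks, the mean place of the peaks had a median of 0.473 of the span over 99 genes on chromosome 8, and 0.426 over 1210 genes elsewhere, with middle ranges that overlapped (0.333 to 0.585 and 0.300 to 0.574).

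Peaks that lay in a single gene were nearly always on its strand. Of 2284 peaks that lay in no other gene, in the 209 genes whose strand the RefSeq promoter table gives, 2280 (99.8%) were on the gene's own strand, against 99.5% of 27500 on the other autosomes. The 4 exceptions were 2 of 5 peaks in the cell cycle gene Rbl2, 1 of 49 in Chd9 and 1 of 9 in Disc1. With shared peaks included, 19 of 2486 pairs of a peak and such a gene were on opposite strands, of which 11 were in Fanca and 1 each in Ctcf, Pdpr, Unc13a and Tenm3. When a gene of known strand counted as bound only by a peak on its own strand, 217 of 725 protein-coding genes (29.9%) were bound on chromosome 8 and 18.4% of 15732 elsewhere. These values by gene strand leave out chromosome 18, which had the highest share of bound genes when strand was ignored. Without gene strands, 3056 of 3064 peaks (99.7%) were on the strand with most peaks of their gene, in 235 genes with at least 2 peaks that were theirs alone. Neighbouring peaks of a gene were a median of 503 bases apart (exact 95% interval of the median 476 to 527 over 2823 distances) on chromosome 8 and 485.5 bases apart (480 to 492) elsewhere. The median peak was 156 bases long on chromosome 8 (middle range 124 to 204) and 153 elsewhere (122 to 201). In strand, spacing and length, the peaks of chromosome 8 were thus close to those of the other autosomes.

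Chromosome 8 members of 7 gene lists differed in how many carried a peak. The lists were drawn up by known role with earlier results of these data known, so their counts are descriptions. RNA processing and translation had 20 of 26 members with a peak (76.9%, median 3.5 peaks), beside 28.5% over all protein-coding genes of the chromosome. Genes of the same length classes on the other autosomes had 17.9%. Chromosome 8 as a whole is above such shares: 297 genes carried a peak where 198.9 would, a ratio of 1.49. A list above the share elsewhere need not exceed chromosome 8 genes of like length. Those shares were not computed per list. Cnot1 had 57 peaks, Tcf25 28, the nonsense-mediated decay helicase gene Upf1 22 and Zc3h18, for a nuclear RNA cap factor, 17. The members at 0 included Dhx38, a splicing helicase gene of the same family as DHX9, together with Edc4, Polr2c and Nip7.

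Transcription and chromatin genes had a peak in 18 of 37 (48.6%, median 0), against 21.4% in genes of like length elsewhere. Nfat5, Ankrd11, Nfix and Cbfb had over 60 peaks each, and 12 members had at least 10, among them Zfhx3 (26), Ctcf (13) and Smarca5 (11). Of the 37 members, 19 were at 0, among them Sox1, Sall1, Irx3 and Junb. Sox1 marks neural progenitors, and its 0 stands beside 0 in Sox2, Pax6 and Nes on other chromosomes. Of the 10 neural progenitor markers checked, 5 had a peak, led by Nfia (339) and Slc1a3 (122), and of the 5 pluripotency markers none had. Of 6 neuron markers, Map2 (46) was the only one with a peak, and of 5 mesoderm and fibroblast markers 3 had one (Col3a1 28, Col1a1 7 and Col1a2 2). Beside these counts, 18.9% of all protein-coding genes on the autosomes other than chromosome 8 had a peak. With so few markers, 0 of 5 and 1 of 6 are near that share. Sox1 is also short (4.04 kb). In the length classes with medians of 3.10 and 5.93 kb, 3.15% and 6.47% of genes elsewhere had a peak. The part of other cell types in the chromosome 8 peaks was not tested. A peak depends on the RNA's level as well as on binding, and levels were not measured.

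Growth factor and intracellular signalling genes had a peak in 13 of 20 (65.0%, median 2.5; 32.3% in genes of like length elsewhere), led by Gab1, Cmip, Fgfr1 and, with 17 each, Gnao1 and Rasa3. Vegfc, Jak3, Gas6 and Plcg2 had 0. Adhesion and matrix genes are long (median span 281.4 kb), and 11 of 25 had a peak (44.0%, median 0). Genes of like length elsewhere had 35.3%, and chromosome 8 genes of the longest length class 54.9%. Among the members, Gpm6a and Dlc1 led, followed by the brain proteoglycan gene Ncan (18) and the collagen gene Col4a1 (13, of which 3 were in no other gene). The list leaves out Adgrl1, with 37 peaks, and Itgb1, with 32, so its count is not a share for adhesion genes as a class. Cdh13 (1185 kb) had 4 peaks and Tenm3 (1297 kb) had 3, of which 2 were on its own strand. The neuregulin gene Nrg1 (1084 kb), Sgcz (1144 kb), Unc5d (573 kb) and Cdh8 (393.2 kb) had 0. Of the 8 cadherin genes, 2 were bound, beside 28.5% of all protein-coding genes of the chromosome. Among the 20 longest protein-coding genes of the chromosome, 11 (55.0%) had a peak, near the 54.9% of chromosome 8 genes in the longest length class.

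Genes of DNA replication, repair and chromosome upkeep had a peak in 9 of 20 (45.0%, median 0), against 20.3% in genes of like length elsewhere. The ubiquitin ligase scaffold gene Cul4a had 27 and Terf2 23. Of the 12 peaks within the minus-strand gene Fanca, 11 were on the plus strand and lay also in the overlapping gene Zfp276, so 1 was on Fanca's own strand. Mcm5, a subunit of the replicative helicase, had 3. The Werner syndrome helicase gene Wrn (151.2 kb), Hmgb2, Cdt1 and Lig4 had 0. In the list of neuronal excitability and synapse, 1 of 13 genes had a peak (7.69%, against 23.7% elsewhere): the calcium channel gene Cacna1a, with 8. Dlgap2 (757.7 kb), Glra3, Jph3 and the neuronal tubulin gene Tubb3 had 0. The list does not hold every gene of this kind on the chromosome. It leaves out Fam155a, with 119 peaks, and Neto2, with 14, and it includes Slc12a3, at 0, whose known role is not mainly neuronal. Its count is therefore not a share for such genes as a class. None of the 10 endothelial and blood cell genes, Cdh5, Irf8, Klf1 and Msr1 among them, had a peak, while genes of their length had one in 21.9% elsewhere. With 10 genes this is a small count. Cdh5, Klf2, Jak3 and Cbfa2t3 are also members of other lists, so their zeros are counted there too.

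**Figure D5:**
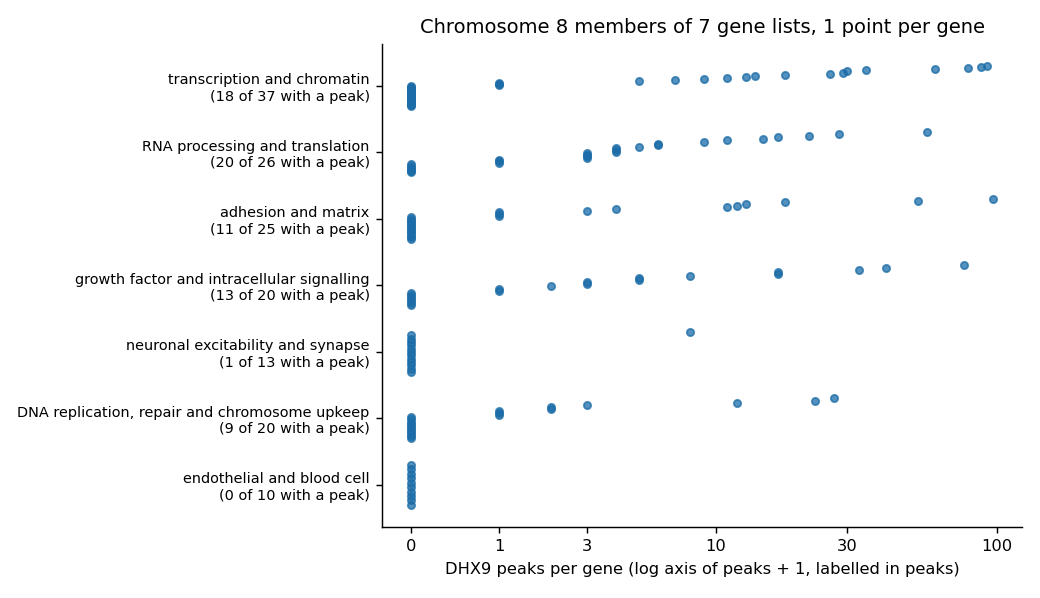
DHX9 peaks per gene (horizontal log axis of peaks plus 1, labelled in peaks) for the chromosome 8 members of 7 gene lists, with 1 point per gene. RNA processing and translation has 20 of 26 members to the right of 0, neuronal excitability and synapse 1 of 13, and endothelial and blood cell genes 0 of 10. Each list is a choice of genes, and some genes are members of more than 1 list.

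Noncoding genes held few peaks of their own. Of 707 long noncoding genes on chromosome 8, 39 (5.52%, exact 95% interval 3.95 to 7.46%) held a peak, against 3.17% of 11701 elsewhere. This count takes peaks of either strand, so it includes peaks of an overlapping gene on the opposite strand. Among the long noncoding genes of known strand, 26 of 479 held a peak on chromosome 8, and in 16 of the 26 all peaks were on the opposite strand. On their own strand, 10 (2.09%, 1.01 to 3.81%) held one, against 1.37% of 8812 elsewhere (without chromosome 18), a difference within the counting interval. Of the 210 pairs of a peak and such a gene, 25 were in no other gene, most of them in Gm5914. Small RNA genes held few peaks. Of 58 small nucleolar RNA genes, 4 (6.90%) had 1 peak each, of which that in Snord13 was in no other gene. Of 7 transfer RNA genes, 2 (28.6%), n-TLcag4 and n-TMcat17, had 1 each. Beside these shares, 5.52% of long noncoding and 28.5% of protein-coding genes of the chromosome held a peak. The shares of small RNA genes elsewhere were not computed.

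Peaks outside every annotated gene numbered 51 (1.50%), against 2.46% on the other autosomes. Of these, 36 lay within 5 kb of a protein-coding gene, and the median distance was 2815 bases. The largest groups were 7 plus-strand peaks between bases 72550302 and 72554393, on the side of Med26 where that minus-strand gene starts and at 2041 to 6017 bases from it, 6 after Sntb2 and 6 beside Trir. Only 3 lay more than 50 kb from a protein-coding gene, of which 1 was 456797 bases from Mcph1 and 1 was 372635 bases from Csmd1, both in the sparse bin from 15 to 20 Mb.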

How the data were processed

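The authors deposited 1 list of peak regions, which per the file itself came from PEAKachu and gives chromosome, start, end and strand in bases of no other unit, with empty score columns. Per the submitters' processing notes, Bowtie2 2.2.6 and the builds hg19 and mm10 were used; the caller's settings and the handling of reads with several placements are not given in the sources used here. Repeats, paralogs and genes that overlap are therefore uncertain.

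Peaks were read as mm10 and assigned by midpoint to the 49997 gene spans (21900 protein-coding) of a RefSeq table of GRCm38.p6. The assignment ignores strand unless stated, so a peak can count for a gene on either strand. Gene strands came from the RefSeq promoter table (79.9% of protein-coding genes). It has no window on chromosome 18, so comparisons by gene strand used 17 other autosomes. Overlapping windows of opposite strands in that table read the same bases once turned, in 1796 of 1796 pairs. Density is the number of peaks in protein-coding genes per Mb of their merged spans. Intervals are exact 95% (Clopper-Pearson) and cover counting error only. Counting functions were tested on made-up data. The members, lists and the rule for named genes were chosen with earlier results of these data known. That rule took the 20 genes with the most peaks, the 6 densest with at least 10, and up to 4 leading and 4 empty members of each list. It also took the leaders of the 5 fullest bins and the longest peak. The longest genes of the bin with much protein-coding span but the fewest peaks per Mb were added too. Some genes the rule takes are described only in counts, and genes named for promoter windows, strand, sharing or distance were chosen after their values were seen. Samples were grouped by their titles. The comparisons by gene number of bins, by length class, by chromosome part and without leading genes are descriptions. Python 3.11.15 with pandas 2.3.3, numpy 2.4.6 and scipy 1.17.1 was used.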

Additional observations from a re-analysis of the deposited data

How the results depend on the processing

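No paired analysis was possible because the 1 list of peaks holds no value per library, and for the same reason no replicate could be left out. Chromosome 8 ranked second in density under the 7 other settings that kept all autosomes. The ratio to the other autosomes (1.63) was 1.70 without genes of 50 or more peaks. Without chromosome 11, an alternative chosen after seeing the data, the ratio was 1.75 with chromosome 8 first, and its share of autosomal peaks was 9.08%, since fewer peaks are counted. The share of genes with a peak (28.5%, others 18.9%) was 23.7% with peaks of at least the median length (others 14.0%), 18.7% with at least 3 peaks per gene (others 11.4%), and 31.99% without predicted genes and receptor families (others 21.9%). The share in the fullest 25 Mb (57.5%) was 68.8% in bins of 2 Mb, 40.7% in bins of 10 Mb, 52.3% without genes of 50 or more peaks and 55.8% with peaks within 50 bases merged. Spacing (503 bases) rose by construction to 703 with the longer peaks and 681 with merged ones, and the majority-strand share was 99.9% with the longer peaks. The other 17 values, among them the share counted on the gene's own strand (29.9%, chosen after seeing the data), stayed within the counting interval of the main value. Depth is unknown, so a gene without a peak may be bound below the caller's threshold.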
